A study of Homo sapiens with 6 samples.

Results

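The genes described here encode the subunits of the respiratory chain, and they are read as 2 sets, those in the mitochondrial genome and those in the nucleus. The members were taken by symbol in GENCODE 29 among protein coding genes: symbols starting with NDUFA, NDUFB, NDUFC, NDUFS, NDUFV, UQCR, ATP5, MT-ND, MT-CO, MT-ATP or MT-CYB, the 4 SDH genes, and the COX4I, COX5, COX6, COX7 and COX8 families. The rule used no measured value. It found 112 of the 60675 gene identifiers in the count table, of which 13 are mitochondrial and 99 are nuclear. Because it goes by symbol, it also took 8 assembly factors of complex I (NDUFAF genes), 3 related proteins that are not subunits of these complexes (NDUFA4L2, ATP5IF1 and COX7A2L), the factor ATP5S and 2 readthrough genes.

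RNA-seq was carried out on A2058 cells, an established line from a metastatic human melanoma, in 3 wells treated with vitamin C (100 µM, 48 h) and 3 control wells without it. The sample labels give that dose, but their protocol field names 50 µM of sodium ascorbate, so the dose is stated in 2 ways. All wells carried the same line in the same medium, which was changed daily, and the RNA was depleted of ribosomal RNA. All wells are cultures of 1 line, and a p-value here speaks only of how far wells vary. The libraries held 25672689, 32549362 and 20944956 counts in vitamin C replicates 1, 2 and 3, and 41884588, 26996891 and 16248869 counts in control replicates 1, 2 and 3. Within each group, all pairs of wells differed by more than sampling noise. Of 12 melanoma and melanocyte markers, 11 had a mean of at least 1 CPM (read counts brought to a common library size, here with TMM factors), including SOX10, MITF and S100B, and their summed level was 2745 to 2874 CPM in vitamin C wells and 2899 to 3018 CPM in control wells. Of these markers 4 were called higher and 1 lower (6.09% and 5.09% of all genes tested), by the test described with the single genes, and their part in the results was not tested. MLANA, a melanocyte antigen, had the largest change of them, with 14.6 to 15.9 CPM in vitamin C wells, against 1.23 to 1.80 CPM in control wells (log2 fold change 3.38, edgeR adjusted p = 9e-09). The means of all 8 blood markers, all 6 skeletal muscle markers and 5 of 6 epithelial markers were under 1 CPM in both groups. Over the members, vitamin C replicate 3 stood apart, with a median absolute deviation from its group mean of 0.11 on the log2 scale, against 0.04 to 0.06 in the other 5 libraries.

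The respiratory chain passes electrons from NADH (complex I) and succinate (complex II) through complex III to oxygen at complex IV, and the proton gradient built on the way drives the ATP synthase. Complex II is encoded wholly in the nucleus, whereas the other complexes join nuclear subunits, imported as proteins, with a few core subunits made inside the mitochondrion. The mitochondrial genome is transcribed as long RNAs from both strands, which are then cut at the transfer RNAs into single messengers. The levels of the messengers of the heavy strand transcript therefore depend on stability as well as on transcription. The comparison asks whether the 2 sets of messengers differed in level between vitamin C and control wells.

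The 13 mitochondrial messengers together were lower in the vitamin C wells, while the sums of the nuclear members overlapped between groups. The summed level of the mitochondrial messengers was 5060, 4861 and 3963 CPM in vitamin C wells, against 5461, 5898 and 6798 CPM in control wells. All 3 vitamin C wells lay below all 3 control wells, with means of 4628 ± 584.4 and 6052 ± 681.7 CPM (SD, n = 3 each) and a ratio of 0.76. Without MT-CO1, MT-CO2 and MT-CO3, the sum was 1224, 1250 and 1282 CPM in vitamin C wells and 1186, 1403 and 1702 in control wells. Those groups overlapped, with a ratio of 0.88. The summed level of the 99 nuclear members was 8041, 7861 and 8455 CPM in vitamin C wells, against 8335, 8243 and 8538 CPM in control wells, a ratio of 0.97 with overlapping groups, although without vitamin C replicate 3 the ratio was 0.95 and the groups did not overlap. The mitochondrial sum divided by the nuclear sum was 0.63, 0.62 and 0.47 in vitamin C wells and 0.66, 0.72 and 0.80 in control wells, again without overlap. In bulk RNA, fewer cells of a type and less RNA per cell cannot be told apart, and the copy number of the mitochondrial genome was not measured.

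**Figure D1:**
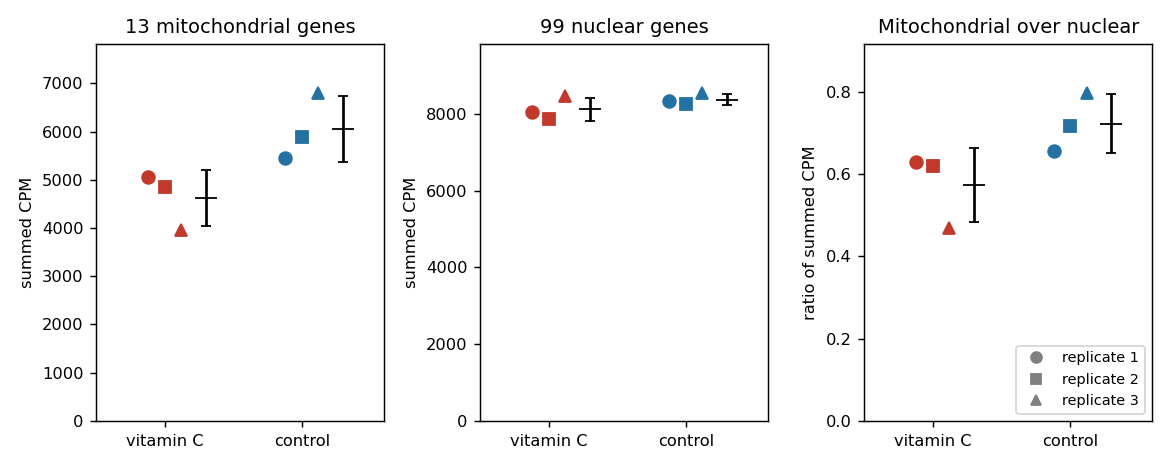
Summed CPM of the 13 mitochondrial genes (left), of the 99 nuclear genes (middle) and their ratio (right), with 1 point per library and, beside the points, the mean and SD of 3 wells. The vitamin C wells lie at 3963 to 5060 CPM for the mitochondrial sum, below the control wells at 5461 to 6798 CPM, while the nuclear sums overlap.

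The size of the mitochondrial difference depended on 1 well in each group. Without vitamin C replicate 3 the ratio of the mitochondrial sums was 0.82, and without control replicate 3 it was 0.81, and in neither case did the groups overlap. Control replicate 3, the highest, was also the shallowest control library, and control replicate 1, the lowest, was the deepest, whereas the shallowest vitamin C library, replicate 3, was the lowest of its group. The part of depth in these values was not tested. Mitochondrial messengers took 0.40 to 0.50% of all counts in vitamin C wells and 0.54 to 0.68% in control wells.

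The other RNAs of the mitochondrial genome did not show the same separation. The 2 ribosomal RNAs, MT-RNR1 and MT-RNR2, which the depletion step removes in part, summed to 654.8, 751.0 and 741.9 CPM in vitamin C wells and 654.2, 740.8 and 639.5 CPM in control wells. The 22 transfer RNAs summed to 40.4 to 52.0 CPM in vitamin C wells and 41.8 to 44.8 CPM in control wells. Both ranges overlap. Neither ribosomal RNA was called by edgeR (adjusted p = 0.70 and 0.67), and of the 8 transfer RNAs that could be tested 0 were called and 0 had an unadjusted p under 0.05.

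Gene by gene, all 13 mitochondrial messengers had a log2 fold change (vitamin C over control) below 0, and 4 of them fell: MT-CO1, MT-CO2, MT-CO3 and MT-ND3. A gene was called at an adjusted p under 0.05 in edgeR's quasi-likelihood test, fitted over 16353 genes with Benjamini-Hochberg adjustment. The median over the 13 was -0.29 and the range -0.46 to -0.0013, beside a median of -0.0037 over all genes tested. Without control replicate 3 the median over the 13 was -0.12, and without vitamin C replicate 3 it was -0.20. The 4 called are 30.8% of the 13, where 11.2% of all genes tested were called in either direction, 6.09% higher and 5.09% lower. DESeq2 called 2 of the 13 lower (MT-CO2 and MT-ND3) and limma-voom 4, beside 4.67 and 5.2% of all genes tested. In edgeR, leaving out control replicate 2 left 2 called lower, beside 2.48% of all genes. Leaving out control replicate 3 left 1, MT-CO2, beside 2.46% of all genes. No mitochondrial messenger was called higher by edgeR, DESeq2 or limma-voom. None had a positive change with an unadjusted p under 0.05 in edgeR, while 6 had a negative one. The share of all genes tested at that unadjusted threshold is not given here. In 5 of the 13 the level was lower in every vitamin C well than in any control well, against 14.9% of all genes tested. Because the 13 are cut from shared precursors in the same wells, they are not 13 independent measurements.

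The 3 mitochondrial messengers of complex IV were the most abundant members per length and were all called. They encode the core of cytochrome c oxidase, which reduces oxygen to water. MT-CO1 (ENSG00000198804, chrM:5904-7445 in GRCh38), the subunit with the heme and copper centre where oxygen is reduced, was at 2110, 1974 and 1406 CPM in vitamin C wells, against 2280, 2473 and 2809 CPM in control wells. MT-CO2 (ENSG00000198712, chrM:7586-8269), which takes electrons from cytochrome c, was at 652.1, 598.4 and 529.5 CPM in vitamin C wells, against 816.3, 712.2 and 850.2 CPM in control wells. MT-CO3 (ENSG00000198938, chrM:9207-9990), the third core subunit, was at 1075, 1039 and 745.6 CPM in vitamin C wells, against 1179, 1310 and 1436 CPM in control wells. For all 3 the groups did not overlap, and vitamin C replicate 3 was the lowest library. The log2 fold changes were -0.46 for MT-CO1 (SE 0.11, edgeR adjusted p = 0.02), -0.42 for MT-CO2 (SE 0.07, adjusted p = 0.0026) and -0.46 for MT-CO3 (SE 0.11, adjusted p = 0.015). Expressed per kilobase of exon, their mean levels were 1411, 1013 and 1442 CPM, while the other 10 mitochondrial messengers lay between 81.5 and 310.0 CPM per kilobase.

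MT-CO2 was the only one of the 4 whose call held under each left-out library and in DESeq2 as well. Over the 6 fits that leave out 1 library, its log2 fold change ran from -0.49 to -0.34 and its adjusted p from 0.00084 to 0.025. MT-CO1 and MT-CO3 were called in 4 of the 6. They lost the call without control replicate 2 (adjusted p = 0.058 and 0.055) and without control replicate 3 (adjusted p = 0.11 and 0.091), and DESeq2 gave them adjusted p = 0.11 and 0.08. Without vitamin C replicate 3, the lowest library, all 3 were still called, with MT-CO1 at a log2 fold change of -0.30.

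**Figure D2:**
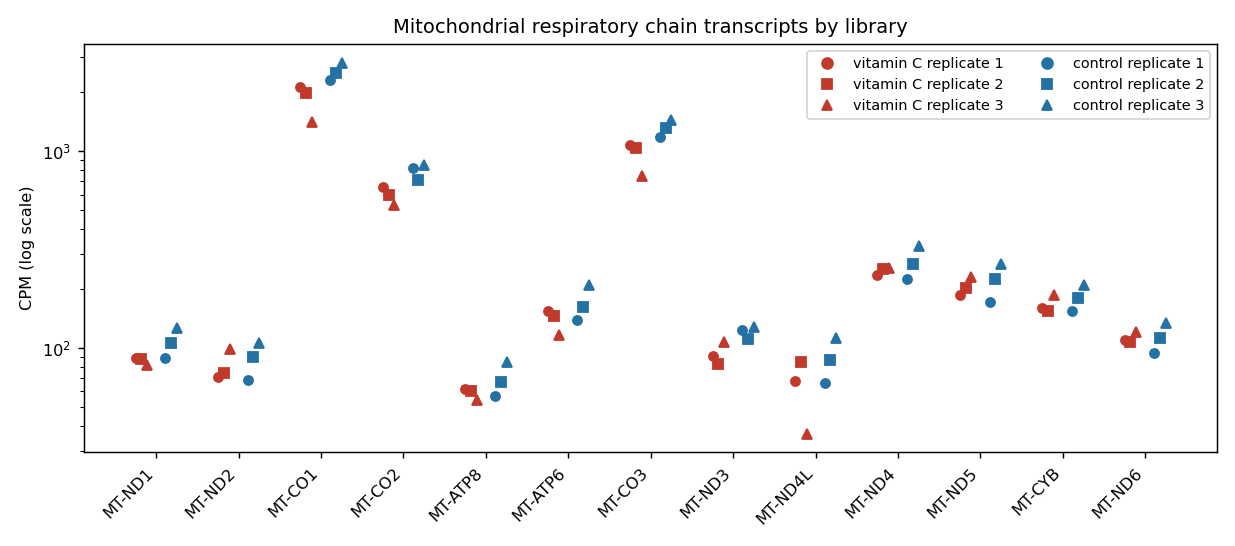
CPM of each mitochondrial messenger in each library on a log scale, with vitamin C wells left of control wells and genes in their order on the mitochondrial genome (MT-ND6 last). For MT-CO1, MT-CO2, MT-CO3, MT-ND3 and MT-ND1 every vitamin C well lies below every control well.

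Complex I has 7 mitochondrial subunits, all of them in the membrane arm that pumps protons. MT-ND3 (ENSG00000198840, chrM:10059-10404), a subunit at the joint of the membrane arm and the arm that binds NADH, was at 91.3, 83.0 and 107.6 CPM in vitamin C wells, against 123.8, 110.8 and 127.0 CPM in control wells. Its groups did not overlap, and its log2 fold change was -0.36 (SE 0.08, edgeR adjusted p = 0.012). Here vitamin C replicate 3 was the highest vitamin C library, the reverse of MT-CO1 and MT-CO3. The call was lost without control replicate 1 (adjusted p = 0.054), control replicate 3 (0.069) or vitamin C replicate 2 (0.06). MT-ND1, which forms part of the quinone site, was at 88.4, 88.2 and 81.6 CPM in vitamin C wells, against 88.6, 105.6 and 126.6 CPM in control wells. The wells did not overlap, although control replicate 1 stood barely above the vitamin C wells, and the gene was not called (log2 fold change -0.30, SE 0.10, adjusted p = 0.058). It was called without control replicate 1 (adjusted p = 0.0058).

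The other subunits of the proton-pumping arm had overlapping groups. MT-ND2 was at 71.2, 74.7 and 98.4 CPM in vitamin C wells and 68.7, 90.0 and 106.3 CPM in control wells. MT-ND4 was at 234.6, 252.5 and 252.9 CPM in vitamin C wells and 223.4, 266.4 and 330.3 CPM in control wells. MT-ND5 was at 186.4, 201.2 and 230.0 CPM in vitamin C wells and 171.7, 224.1 and 264.9 CPM in control wells. In these 3 genes control replicate 1 was the lowest of all 6 libraries and control replicate 3 the highest. Their log2 fold changes were -0.11, -0.14 and -0.09 (adjusted p = 0.68, 0.41 and 0.68), and without control replicate 3 all 3 turned positive, at 0.04, 0.01 and 0.06.

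MT-ND4L and MT-ND4 are translated from 1 shared messenger, and both had overlapping groups. MT-ND4L was at 68.2, 84.8 and 36.5 CPM in vitamin C wells, against 66.1, 86.5 and 112.7 CPM in control wells. Its vitamin C replicate 3 is the lowest value and its control replicate 3 the highest, while MT-ND4 in vitamin C replicate 3 was the highest of its group. The fold change of MT-ND4L, -0.46 (SE 0.23, adjusted p = 0.23), was as large as that of MT-CO1 but with the widest error of the 13. The 2 reading frames overlap by 2.36% of the length of MT-ND4L, and the treatment of reads in the overlap was not given in the sources used here.

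MT-ND6, the one messenger encoded on the opposite strand, had the fold change closest to 0 of the 13. It was at 109.3, 107.3 and 120.2 CPM in vitamin C wells and 94.1, 111.7 and 133.2 CPM in control wells, with a log2 fold change of -0.0013 (SE 0.09, adjusted p = 1). Its sign turned under 9 of 17 alternatives, among them RLE and library-size scaling, at values of 0.0002 and 0.01, and 3 of the fits with 1 library left out (0.13 without control replicate 3), so it has no direction. As a share of the 13 messengers it took 2.16, 2.21 and 3.03% in vitamin C wells and 1.72, 1.89 and 1.96% in control wells, without overlap. That share also moves with the sum of the 13, which was lower in vitamin C wells, so it is no separate result on MT-ND6. The strand setting of the counting was not given in the sources used here. Reads of MT-ND6 and of RNA antisense to it cannot be told apart.

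The remaining mitochondrial messengers encode cytochrome b and 2 subunits of the ATP synthase. MT-CYB, the electron-carrying core of complex III, was at 158.7, 153.0 and 184.7 CPM in vitamin C wells and 153.7, 179.3 and 208.0 CPM in control wells (log2 fold change -0.12, SE 0.09, adjusted p = 0.46). MT-ATP6, the subunit through which protons enter the rotor, was at 153.9, 144.7 and 115.8 CPM in vitamin C wells and 139.2, 161.5 and 209.0 CPM in control wells (-0.29, SE 0.12, adjusted p = 0.15). MT-ATP8, a small membrane subunit read from the same messenger as MT-ATP6, was at 61.8, 60.4 and 54.4 CPM in vitamin C wells and 57.1, 67.0 and 84.2 CPM in control wells (-0.22, SE 0.11, adjusted p = 0.21). In all 3, control replicate 1 lay within the range of the vitamin C wells. MT-ATP8 was called without control replicate 1 (adjusted p = 0.041). Of the nuclear copies of mitochondrial genes in the table, those named for MT-ATP6 drew the most counts, 4533 beside 24630 for the gene itself, and adding the counts of such copies to their genes turned the sign of only MT-ND6 among the 13, to 0.0031.

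**Figure D3:**
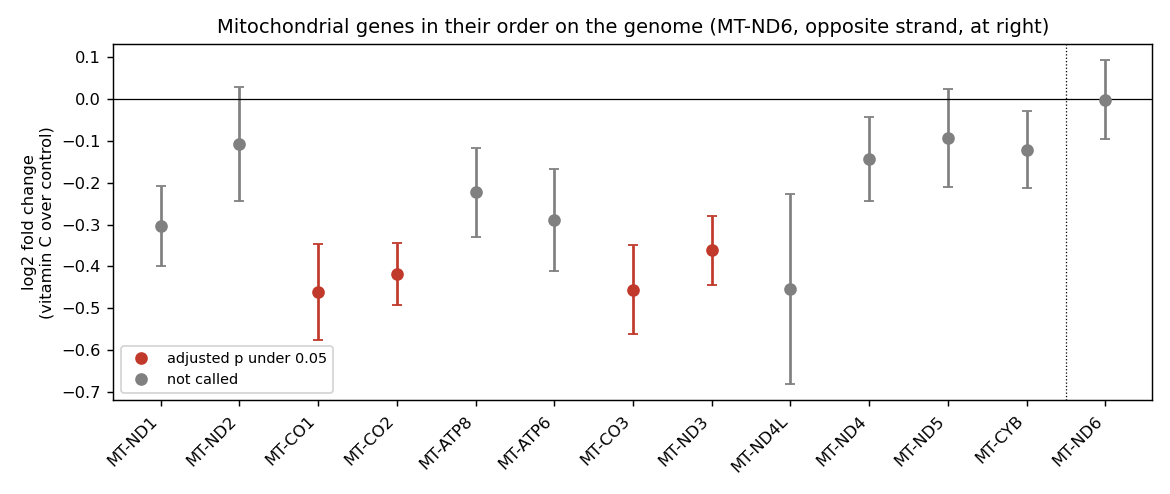
Log2 fold change (vitamin C over control) with its SE for the 13 mitochondrial messengers in genome order, called genes in red, and MT-ND6 of the opposite strand apart at the right. The called genes MT-CO1, MT-CO2, MT-CO3 and MT-ND3 lie between -0.46 and -0.36, with MT-ATP8 and MT-ATP6 between them at -0.22 and -0.29, MT-ND4L lies at -0.46 with the widest error, and the genes from MT-ND4 on lie between -0.14 and -0.0013.

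Read along the heavy strand, the called genes lay between MT-CO1 and MT-ND3, a stretch that also holds MT-ATP8 and MT-ATP6, which were not called (-0.22 and -0.29). MT-ND1 and MT-ND2 before them stood at -0.30 and -0.11, and MT-ND4L, MT-ND4, MT-ND5 and MT-CYB behind them at -0.46, -0.14, -0.09 and -0.12. No test of position was made. Split by complex, the 3 complex IV messengers summed to 3837, 3612 and 2681 CPM in vitamin C wells, against 4275, 4495 and 5096 CPM in control wells, without overlap. The 7 messengers of complex I summed to 849.5, 891.6 and 927.3 CPM in vitamin C wells and 836.3, 995.1 and 1201 CPM in control wells, which overlapped. Complex IV messengers therefore carried most of the difference in the mitochondrial sum, and they made up 75.8, 74.3 and 67.7% of it in vitamin C wells and 78.3, 76.2 and 75.0% in control wells. These shares overlap.

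Among the 89 nuclear members that passed the filter on low counts, 4 fell and none rose. They were NDUFAB1 and NDUFA6 of complex I, ATP5PF of the ATP synthase and COX7C of complex IV. The 4 are 4.49% of the 89, near the 5.09% of all genes that were called lower. The median log2 fold change was -0.03, with 37 members above 0 and 52 below, and the range was -0.27 to 0.36. With all 6 libraries and the filter on low counts, no nuclear member was called higher by edgeR, DESeq2 or limma-voom. At an unadjusted p under 0.05 in edgeR, 3 were higher (NDUFA12, NDUFB2 and COX7A2L), against 11 lower. The share of all genes tested at that threshold is not given here, so these counts are not read as a lean of the members. DESeq2 and limma-voom each called 4 lower. In 9 members all vitamin C wells lay below the control wells and in 3 above, where the shares over all genes tested were 14.9% and 15.6%. The number called lower depended on single libraries. It was 10 without vitamin C replicate 3 and 6 without vitamin C replicate 1, where NDUFB3 was called higher (0.34, edgeR adjusted p = 0.021). It was 2 without control replicate 1, 1 without control replicate 2 or vitamin C replicate 2, and 0 without control replicate 3. Over all genes, the share called lower in these fits ran from 5.45% without vitamin C replicate 3 to 2.46% without control replicate 3.

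**Figure D4:**
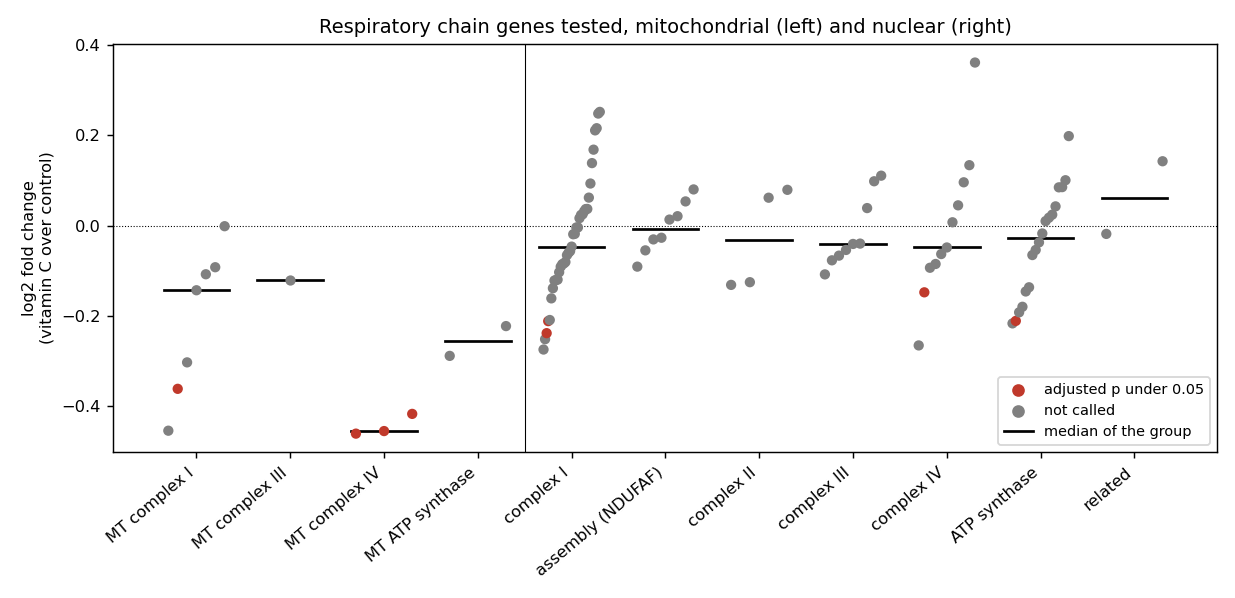
Log2 fold change (vitamin C over control) of every member tested, 1 point per gene, by complex, with the mitochondrial groups left of the nuclear ones, called genes in red and the group median as a line. The 3 mitochondrial genes of complex IV lie between -0.46 and -0.42, while the medians of nuclear complexes I to IV and the ATP synthase lie between -0.05 and -0.03.

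The promoters of the 4 nuclear members that fell are printed here because nuclear respiratory genes are known to share binding sites for a few factors. The windows run from 250 bases before to 50 bases after the start site in RefSeq (GRCh38.p14), 5′ to 3′ on the strand of the gene, and capitals mark matches on either strand to TGCGCA (the core of the NRF1 site), CCGGAAG (an ETS site of the kind bound by GABPA) or AAGATGGCG (a site of the kind bound by YY1). They are ATP5PF at chr21:25735005-25735304 (minus strand), NDUFAB1 at chr16:23596267-23596566 (minus strand), NDUFA6 at chr22:42090723-42091022 (minus strand) and COX7C at chr5:86617691-86617990 (plus strand).
ATP5PF: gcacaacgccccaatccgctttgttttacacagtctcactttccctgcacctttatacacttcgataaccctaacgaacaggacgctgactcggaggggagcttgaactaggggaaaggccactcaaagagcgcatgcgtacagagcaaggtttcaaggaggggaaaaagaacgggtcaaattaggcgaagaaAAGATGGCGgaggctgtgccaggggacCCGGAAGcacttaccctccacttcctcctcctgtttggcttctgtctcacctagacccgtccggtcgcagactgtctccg
NDUFAB1: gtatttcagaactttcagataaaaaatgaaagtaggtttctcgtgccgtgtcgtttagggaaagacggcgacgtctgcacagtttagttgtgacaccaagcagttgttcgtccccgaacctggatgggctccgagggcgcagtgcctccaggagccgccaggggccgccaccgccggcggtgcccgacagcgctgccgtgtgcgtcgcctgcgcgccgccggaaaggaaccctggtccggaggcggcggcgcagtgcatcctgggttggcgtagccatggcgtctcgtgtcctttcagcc
NDUFA6: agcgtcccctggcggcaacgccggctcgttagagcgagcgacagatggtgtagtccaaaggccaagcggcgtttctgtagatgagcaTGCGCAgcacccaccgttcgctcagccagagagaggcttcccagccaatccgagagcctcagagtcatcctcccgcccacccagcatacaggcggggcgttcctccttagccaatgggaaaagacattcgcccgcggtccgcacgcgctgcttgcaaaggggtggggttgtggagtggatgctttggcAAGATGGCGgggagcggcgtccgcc
COX7C: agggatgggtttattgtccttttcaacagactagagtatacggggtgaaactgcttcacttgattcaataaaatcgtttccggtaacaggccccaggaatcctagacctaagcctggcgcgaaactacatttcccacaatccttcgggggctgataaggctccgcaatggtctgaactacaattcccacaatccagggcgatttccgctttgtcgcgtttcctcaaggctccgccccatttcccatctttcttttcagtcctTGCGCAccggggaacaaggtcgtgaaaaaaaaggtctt
ATP5PF holds an ETS match and a YY1 match, NDUFA6 an NRF1 match and a YY1 match, COX7C an NRF1 match, and NDUFAB1 none of the 3. Over the 78 nuclear members with a promoter in the table, TGCGCA was found in 22 (28.2%), CCGGAAG in 21 (26.9%) and AAGATGGCG in 8 (10.3%), beside 8.2, 10.3 and 1.7% of all 35116 promoters of the same length. Matches to CCGGAAG and AAGATGGCG can share the letters AAG where they adjoin. At least 1 of them was found in 38 of the 78 (48.7%), beside 18.2% of all promoters. The members entered with 1 promoter each, while the 35116 were not selected by gene class or level and not reduced to 1 per gene. Whether the difference is particular to respiratory genes was not tested. A match is a run of letters and no measured binding.

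The 4 nuclear members that fell had log2 fold changes of -0.24 to -0.15, beside -0.46 to -0.36 in the 4 mitochondrial genes called, a difference that was not tested. NDUFAB1 (ENSG00000004779, chr16:23581002-23596356), the mitochondrial acyl carrier protein and a subunit of complex I, was at 111.9, 112.7 and 105.3 CPM in vitamin C wells, against 127.3, 123.7 and 131.5 CPM in control wells. Its log2 fold change was -0.21 (SE 0.05, edgeR adjusted p = 0.014). NDUFA6 (ENSG00000184983, chr22:42085525-42090955), an accessory subunit that binds the acyl carrier protein, was at 39.6, 38.9 and 37.4 CPM in vitamin C wells, against 44.1, 46.1 and 46.8 CPM in control wells, a log2 fold change of -0.24 (SE 0.06, adjusted p = 0.018). Both partners were thus lower in every vitamin C well, by 13.7 and 15.3%.

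ATP5PF (ENSG00000154723, chr21:25716503-25735673), coupling factor 6 in the peripheral stalk of the ATP synthase, was at 79.9, 73.3 and 75.4 CPM in vitamin C wells, against 87.0, 87.2 and 90.5 CPM in control wells (log2 fold change -0.21, SE 0.05, edgeR adjusted p = 0.019). Of its exon bases, 23.1% lie antisense to exons of GABPA and JAM2, and without strand its reads and theirs cannot be told apart, while GABPA itself was not called (0.07, adjusted p = 0.41). COX7C (ENSG00000127184, chr5:86617904-86620962), a small subunit of complex IV and its most abundant nuclear one per length, was at 233.2, 222.5 and 227.1 CPM in vitamin C wells, against 254.8, 248.4 and 253.2 CPM in control wells (-0.15, SE 0.04, adjusted p = 0.04). For all 4 genes the groups did not overlap. None of the 4 kept its call under every left-out library, and COX7C also lost it with no filter on low counts (adjusted p = 0.13). Without control replicate 3 their adjusted p were 0.081 (NDUFAB1), 0.082 (NDUFA6), 0.09 (ATP5PF) and 0.14 (COX7C). NDUFAB1 also missed it without control replicate 1 (0.053), NDUFA6 without control replicate 2 (0.078) or vitamin C replicate 2 (0.064), ATP5PF without control replicate 1 (0.056), control replicate 2 (0.065) or vitamin C replicate 2 (0.099), and COX7C without control replicate 1 (0.13), control replicate 2 (0.10) or vitamin C replicate 2 (0.14).

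**Figure D5:**
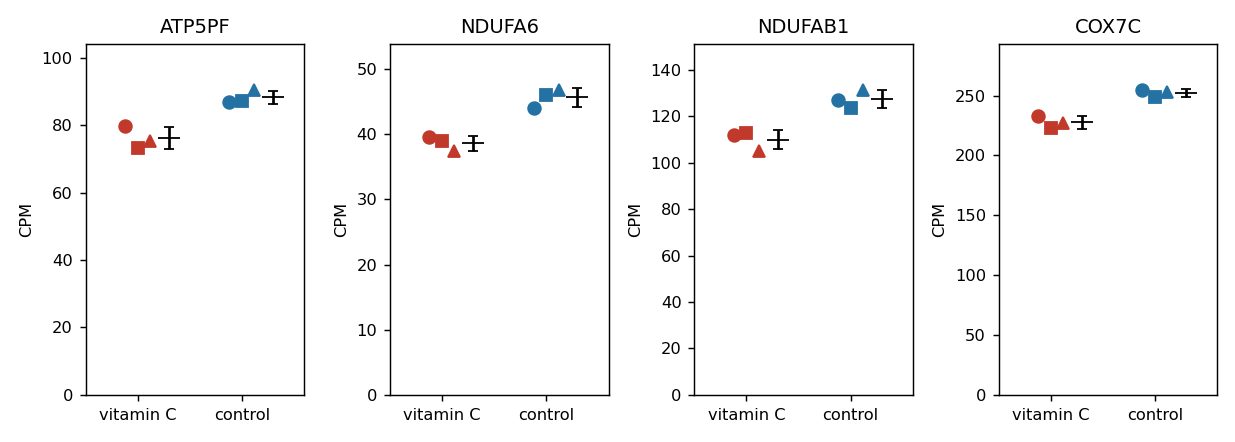
CPM of the 4 nuclear members that were called, 1 point per library with the mean and SD of 3 wells beside them, on axes from 0, circles, squares and triangles standing for replicates 1, 2 and 3. In each gene the vitamin C wells lie below the control wells, from 37.4 to 39.6 against 44.1 to 46.8 CPM for NDUFA6 and from 222.5 to 233.2 against 248.4 to 254.8 CPM for COX7C.

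Complex I, the entry point for NADH, had 37 of its 38 nuclear members tested, 2 of them lower (5.41%, beside 5.09% of all genes tested) and none higher (6.09% of all genes), with a median of -0.05. Without vitamin C replicate 3 there were 4 lower, beside 5.45% of all genes in that fit. The others were NDUFB9 and NDUFB10 (edgeR adjusted p = 0.043 and 0.01). The most abundant member per kilobase was NDUFS5, an accessory subunit, at 188.4, 179.4 and 191.6 CPM in vitamin C wells and 180.4, 196.7 and 217.5 CPM in control wells, which overlap (-0.09, adjusted p = 0.42). The 8 NDUFAF assembly factors, which help build the complex and leave it, lay between -0.09 and 0.08 with a median of -0.0068, and none was called (0 at an unadjusted p under 0.05, and 0 in DESeq2 and limma-voom). NDUFAF2, the most abundant of them per kilobase, was at 38.1, 35.1 and 45.8 CPM in vitamin C wells and 39.1, 38.4 and 39.4 CPM in control wells. Its change of 0.02 (adjusted p = 0.91) became -0.09 without vitamin C replicate 3.

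Complex II, succinate dehydrogenase, also works in the tricarboxylic acid cycle and has no mitochondrial subunit. None of its 4 genes was called by edgeR, DESeq2 or limma-voom, and 1, SDHA, had an unadjusted p under 0.05. The flavin subunit SDHA was at 162.3, 156.9 and 163.4 CPM in vitamin C wells, against 183.2, 170.0 and 172.8 CPM in control wells. All vitamin C wells lay below the control wells, but the gene was not called (-0.13, SE 0.05, adjusted p = 0.10). The iron-sulfur subunit SDHB was at 96.7, 101.9 and 116.1 CPM in vitamin C wells and 101.3, 96.9 and 103.0 CPM in control wells (0.06, adjusted p = 0.60). The membrane anchors had overlapping groups as well. SDHC was at 55.2, 52.2 and 48.3 CPM in vitamin C wells and 53.6, 61.2 and 56.1 CPM in control wells (-0.13, adjusted p = 0.24), and SDHD was at 56.5, 59.1 and 64.5 CPM in vitamin C wells and 57.2, 56.3 and 56.9 CPM in control wells (0.08, adjusted p = 0.45). Pseudogenes named for SDHA drew 1433 counts, beside 27724 for the gene.

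Complex III, which passes electrons to cytochrome c, had all 9 nuclear members tested and none called, between -0.11 and 0.11 (0 at an unadjusted p under 0.05, and 0 in DESeq2 and limma-voom). Without vitamin C replicate 3, 3 of the 9 were called lower, beside 5.45% of all genes in that fit. They were UQCRH, UQCRQ (-0.15, edgeR adjusted p = 0.041) and UQCRHL (-0.28, adjusted p = 0.033). Because UQCRH and UQCRHL are near-identical, their 2 calls are not independent. Its core subunits UQCRC1 and UQCRC2 and the iron-sulfur protein UQCRFS1 were at -0.05, -0.04 and -0.11. UQCRH, the hinge protein, was the most abundant per kilobase, at 256.4, 241.5 and 331.0 CPM in vitamin C wells and 257.1, 290.3 and 321.1 CPM in control wells. It was not called (-0.07, adjusted p = 0.74), but was called lower without vitamin C replicate 3 (-0.21, adjusted p = 0.043). UQCRHL is a near-identical intronless copy, and its counts were 27.9, 25.3 and 34.6% of the pair in vitamin C wells and 27.2, 28.7 and 26.9% in control wells. The split between the 2 genes is therefore uncertain. The change of UQCRHL was 0.10 (adjusted p = 0.81), which without vitamin C replicate 3 turned to the negative value above. UQCRHL, UQCRQ, NDUFB9 and NDUFB10 were chosen for mention after their values were seen.

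Complex IV had 11 of its 17 nuclear members tested, with COX7C lower (9.09%, beside 5.09% of all genes tested) and a median of -0.05. COX5A, named after its values were seen, had no overlap between groups but was not called (-0.27, SE 0.09, edgeR adjusted p = 0.064). It was called lower without control replicate 1 (adjusted p = 0.039) and with the replicate number as a block (0.045). NDUFA4, named for complex I but a subunit of complex IV, was at 52.5, 63.3 and 39.4 CPM in vitamin C wells and 52.7, 53.1 and 49.2 CPM in control wells. The vitamin C wells bracketed the control wells, and its change of 0.0074 (adjusted p = 0.98) turned negative with upper quartile scaling (-0.0044), so it has no direction. The ubiquitous forms of the subunits that have a tissue-specific partner were expressed and not called. COX4I1 was at 142.0, 142.2 and 170.2 CPM in vitamin C wells and 157.0, 160.2 and 167.5 CPM in control wells (-0.09, adjusted p = 0.41), and it was called lower without vitamin C replicate 3 (-0.18, adjusted p = 0.013). COX6A1, COX6B1 and COX7A2 had changes of -0.05, 0.10 and 0.05 (adjusted p = 0.77, 0.48 and 0.72), all with overlapping groups. The partner forms were nearly silent. COX4I2 and COX6A2 had 0 counts in all libraries, COX7A1 had 0 counts in vitamin C wells and 1 in control wells, and COX6B2 had 3 counts in vitamin C wells and 1 in control wells. A pooled count of 0 allows up to 0.0379 CPM in the vitamin C wells and 0.0352 CPM in the control wells (3 counts over the 3 libraries, counting error only).

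The ATP synthase had 18 of its 20 nuclear members tested, 1 of them lower (5.56%, beside 5.09% of all genes tested). The 5 subunits of the F1 head and its stalk (ATP5F1A to ATP5F1E) were not called and lay between -0.22 and 0.01. ATP5F1E (-0.18, edgeR adjusted p = 0.075) was called lower without vitamin C replicate 1 (-0.23, adjusted p = 0.029). It was also called lower with no filter (0.017) and with the replicate number as a block (0.049). ATP5F1B, the catalytic beta subunit and the most abundant member of the complex per kilobase, was at 413.3, 411.4 and 386.7 CPM in vitamin C wells and 453.0, 398.6 and 405.5 CPM in control wells (-0.05, adjusted p = 0.58). The 3 genes ATP5MC1, ATP5MC2 and ATP5MC3, which encode the same ring protein, were at 0.20, 0.02 and 0.10 and not called. The sum over the 20 genes was 2650, 2587 and 2672 CPM in vitamin C wells, against 2768, 2677 and 2793 CPM in control wells. These did not overlap, although the ratio was only 0.96. In the other nuclear complexes the sums overlapped, with ratios of 0.96 to 0.98, and the overlap came from vitamin C replicate 3. Without that library the sums of nuclear complexes I, II, III and IV also lay below all control wells. The ratios were then 0.96, 0.95, 0.92 and 0.94, beside 0.95 for the ATP synthase, so the separation is not particular to the ATP synthase.

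The proteins that act beside the complexes were not called or were too low to test. ATP5IF1, which inhibits the ATP synthase when it runs backwards, was at 46.2, 43.3 and 55.8 CPM in vitamin C wells and 49.8, 45.5 and 51.5 CPM in control wells (-0.02, adjusted p = 0.92). COX7A2L, which joins complexes III and IV in supercomplexes, was at 92.2, 88.7 and 104.6 CPM in vitamin C wells, against 86.7, 84.0 and 87.6 CPM in control wells. Its groups did not overlap, but it was not called (0.14, SE 0.06, adjusted p = 0.16). NDUFA4L2, a relative of NDUFA4 known as a target of hypoxia-inducible factor, had 9, 7 and 6 counts in vitamin C wells and 5, 2 and 1 in control wells. It missed the filter, and with no filter it was not called (log2 fold change 1.56, adjusted p = 0.31).

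The 10 nuclear members that missed the filter were NDUFA4L2, COX4I2, COX6A2, COX6B2, COX7A1, COX7B2, COX8C, ATP5MGL, ATP5MF-PTCD1 and NDUFC2-KCTD14. COX7B2, COX8C and COX6B2 are forms known from testis, COX6A2 and COX7A1 from muscle, and the last 2 names are readthrough genes. The members tested at the lowest level were NDUFA7, at 0.50 to 0.63 CPM, and NDUFA13, at 0.79 to 1.19 CPM. Both are accessory subunits of complex I whose exons overlap other genes on the same strand (32.3 and 21.0% of their bases), so their low counts are uncertain. The same holds for NDUFV2, with 28.4% of its bases in such an overlap and a pseudogene that drew 1030 counts, beside 902 for the gene.

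Among the factors that act on mitochondrial RNA, LRPPRC fell. LRPPRC binds mitochondrial messengers together with SLIRP and keeps them stable and polyadenylated. It was at 469.4, 449.6 and 424.3 CPM in vitamin C wells, against 524.1, 525.0 and 509.0 CPM in control wells, without overlap (-0.21, SE 0.05, edgeR adjusted p = 0.0092). It was called in 5 of the 6 fits with 1 library left out (adjusted p = 0.052 without control replicate 2). SLIRP was not called (-0.02, adjusted p = 0.89). Of the 22 genes of mitochondrial RNA processing and stability, 2 fell and none rose, with a median of -0.04, where 5.09% of all genes tested were called lower and 6.09% higher. The other was FASTKD3, of the FASTK family of mitochondrial RNA-binding proteins (-0.22, adjusted p = 0.041), which was called in 2 of the 6 fits, and had adjusted p = 0.17 without control replicate 3. FASTKD3 also lost the call with scaling by library size alone (0.052), with no filter (0.055) and in limma-voom (0.051).

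The machinery that transcribes and copies mitochondrial DNA had 1 call. Of its 17 genes 1 rose and none fell, where 6.09% of all genes tested were called higher and 5.09% lower. The median was 0.02. The gene was the primase and polymerase PRIMPOL (0.23, edgeR adjusted p = 0.037). PRIMPOL was called in 0 of the 6 fits with 1 library left out (adjusted p = 0.051 to 0.14). It also missed the call with upper quartile scaling (0.052). TFAM, which packs the mitochondrial genome and opens its promoters, was at 170.7, 168.2 and 180.7 CPM in vitamin C wells and 174.0, 170.6 and 169.9 CPM in control wells (0.01, adjusted p = 0.90). The mitochondrial RNA polymerase POLRMT was also not called (0.09, adjusted p = 0.67). Both were chosen for their role.

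Of 12 nuclear regulators of respiratory genes, 1 rose and 2 fell, where 11.2% of all genes tested were called. HIF1A, the oxygen-regulated factor that favours glycolysis over respiration, was at 2024, 1955 and 2113 CPM in vitamin C wells, against 1753, 1763 and 1802 CPM in control wells (0.20, SE 0.04, edgeR adjusted p = 0.0081). PPRC1, a coactivator related to PGC-1 alpha, fell (-0.31, adjusted p = 0.013), as did MYC (-0.30, adjusted p = 0.014). HIF1A kept its call in all 6 fits with 1 library left out, MYC in 4 (0.059 without control replicate 3) and PPRC1 in 3 (0.078 without control replicate 1). NRF1, GABPA, YY1 and PPARGC1A were not called, with changes of -0.14, 0.07, 0.01 and -0.10.

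Of the 77 mitochondrial ribosomal proteins tested, 2 rose and 2 fell (6.09% and 5.09% of all genes tested did), with a median of -0.04. At an unadjusted p under 0.05 in edgeR there were 2 higher and 13 lower. The share of all genes at that threshold is not given here, so these counts are not read as a shift. MRPS30 rose (0.27, SE 0.04, edgeR adjusted p = 0.00093) and was called in all 6 fits with 1 library left out, while MRPS6 (-0.19, adjusted p = 0.03) was called in 2 and MRPL10 (-0.23, adjusted p = 0.041) in 0. With no filter MRPS6 was at 0.064 and MRPL10 at 0.093, and MRPL10 also missed the call in DESeq2 (0.064), with library size alone (0.051) and with the replicate block (0.054). MRPL55, named after its values were seen, rose as well (0.32, adjusted p = 0.047). Of 47 assembly factors outside the symbols of the rule, 2 fell and none rose, where 5.09% of all genes tested were called lower and 6.09% higher. They were SCO1, a copper chaperone of complex IV (-0.20, edgeR adjusted p = 0.016), and NUBPL, an iron-sulfur factor of complex I (-0.25, adjusted p = 0.048). SCO1 was called in 4 of the 6 fits (0.10 without control replicate 3) and NUBPL in 1 (0.16 without control replicate 3). NUBPL also lost the call with RLE scaling, library size alone, no filter, DESeq2 and limma-voom (adjusted p = 0.05 to 0.082). Of 8 electron carriers 1 rose and none fell, beside the same shares of all genes. It was ETFDH, which passes electrons from fatty acid oxidation to ubiquinone (0.27, edgeR adjusted p = 0.0079), and it held in all 6 fits.

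Of 14 genes of the tricarboxylic acid cycle, which supplies the NADH and succinate used by complexes I and II, 1 rose and 2 fell (11.2% of all genes tested were called), and the median was -0.02. OGDH, the first subunit of the 2-oxoglutarate dehydrogenase complex, was at 115.0, 122.6 and 132.3 CPM in vitamin C wells, against 92.0, 88.9 and 85.0 CPM in control wells (0.47, SE 0.06, edgeR adjusted p = 0.00016). MDH2, mitochondrial malate dehydrogenase, was at 44.0, 44.2 and 39.7 CPM in vitamin C wells, against 57.1, 52.1 and 52.5 CPM in control wells (-0.34, SE 0.06, adjusted p = 0.0039). Neither gene overlapped between groups, and both held in all 6 fits with 1 library left out. CS, citrate synthase, fell less (-0.20, adjusted p = 0.028) and was called in 2 of the 6 (0.11 without control replicate 1).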

How the data were processed

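Counts of reads per gene were examined for 3 vitamin C wells and 3 control wells. The authors deposited raw counts, without normalization, made from paired-end reads of RNA depleted of ribosomal RNA. The paper names STAR, HTSeq and GENCODE 19. The notes of the submitters list hg38, Trim Galore, STAR and CASAVA 1.4. The strand setting was not given in the sources used here. The series table and the 6 single-sample tables hold the same values. Symbols, gene classes and GRCh38 coordinates came from GENCODE 29, which holds 57055 of the 60675 identifiers.

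Counts were analysed in R 4.3.3 with edgeR 4.0.16: filterByExpr (16353 genes kept), TMM, the quasi-likelihood test of treatment alone, and Benjamini-Hochberg adjustment over all genes tested. The SE of a log2 fold change is its size divided by the root of the F statistic. CPM were computed here from the deposited counts with TMM factors. Levels per kilobase used merged exons. DESeq2 1.42.0, limma-voom 3.58.1, other scalings, filters and thresholds, the replicate number as a block and each library left out in turn were alternatives. The fit was tested on simulated data. The replicate numbers were not read as pairs of wells. Members and gene lists were chosen with earlier results of these data known. Genes named are all mitochondrial members, nuclear members called, the highest member per kilobase of each complex, SDH genes, the paralogue sets, and up to 3 called genes of each other list by p. Others named were chosen for their role or after their values were seen. Some results are not reported here. Promoters came from RefSeq (78 of 99 nuclear members matched). With 3 wells a group, small differences may go undetected, and intervals for counts of 0 cover counting error only.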

Additional observations from a re-analysis of the deposited data

How the results depend on the processing

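The median log2 fold change of the nuclear members kept its sign under all 17 alternatives (-0.04 to -0.01), and no mitochondrial member was called higher under any of 17. With 1 library left out, the genes called over the table numbered 964 to 2095, nuclear members called lower 0 to 10 and higher 0 to 1 (NDUFB3), mitochondrial members called lower 1 to 5, and the mitochondrial median ran from -0.35 to -0.12. Adjusted p under 0.1 gave 2763 genes and under 0.01 gave 795, with 0 nuclear and 1 mitochondrial member lower. With no filter 8 mitochondrial members were lower and 1 nuclear member higher (NDUFA1, 0.26), beside 1.88% of all genes lower and 2.56% higher. The nuclear members NDUFA8, NDUFAB1, ATP5F1E, NDUFA6 and ATP5PF were called lower in that fit. DESeq2 called 2 mitochondrial members lower (MT-CO2 and MT-ND3), beside 4.67% of all genes. The cause of these differences between settings was not tested. Over all genes, 6.09% were called higher and 5.09% lower, with library size alone 6.73 and 4.6%, and with upper quartile scaling 5.45 and 5.89%.

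The sign turned for some members that were not called with all 6 libraries. UQCRHL, at 0.10, was called lower without vitamin C replicate 3 (-0.28), and ran to 0.31 without vitamin C replicate 2. MT-ND6 stood at 0.0002 (RLE), 0.0101 (library size), 0.006 (no filter), 0.0277 (limma-voom), 0.0061 (replicate block) and 0.0031 (nuclear copies added), and NDUFA4 at -0.0044 (upper quartile), -0.0075 (limma-voom) and -0.0072 (replicate block). With 1 library left out, the ranges were -0.12 to 0.13 for MT-ND6, -0.27 to 0.0131 for MT-ND4, -0.25 to 0.0595 for MT-ND5, -0.27 to 0.0405 for MT-ND2, -0.0901 to 0.0064 for ATP5F1B, -0.0867 to 0.11 for NDUFAF2, -0.0099 to 0.12 for SDHB, -0.21 to 0.0232 for UQCRH, -0.12 to 0.0603 for ATP5IF1, -0.17 to 0.17 for NDUFA4, -0.12 to 0.0254 for COX6A1 and -0.0067 to 0.11 for COX7A2. The wells shared replicate numbers, but deviations of same-numbered wells correlated at 0.123, -0.024 and 0.091, so the numbers were not read as pairs. With the replicate number as a block, 1913 genes were called, 6 nuclear and 5 mitochondrial members lower, beside 5.46% of all genes lower. The shallowest library held 16248869 counts, and members at about 1 CPM rest on few reads.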
